A study of Rattus norvegicus with 8 samples.

Results

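Expression was compared between lungs of rats ventilated prone at an injurious tidal volume and lungs of rats that were not ventilated. The comparison took every array whose title gives the prone position with a high tidal volume and every array titled as a non-ventilated control, 5 of the 8 arrays of the series, 3 prone and 2 non-ventilated. Every sample was total RNA from the dorsal-caudal lung quadrant of a male Sprague-Dawley rat weighing 340 to 400 g, and the titles call each one a biological replicate. The ventilated rats received 18 mL of gas per kg of body weight at 40 breaths per minute with an end-expiratory pressure of 0 cmH2O, for up to 3 hours. The time for which each single rat was ventilated is not stated. Anaesthesia, a tracheotomy and cannulation of the jugular vein are described for the rats as a whole, and the labels do not say separately which of these the non-ventilated rats had. No rats ventilated at a low volume enter, so ventilation itself and its high volume cannot be told apart. The 3 supine arrays of the series served in the filter on low signals and in the estimate of the spread between replicates.

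Large breaths without end-expiratory pressure overstretch some alveoli and let others collapse and reopen with each cycle. Cells of the alveolar wall are known to answer such strain with stress kinases, immediate early transcription factors and cytokines, neutrophils are drawn into the airspaces, and the barrier of epithelium and endothelium becomes leaky. Body position matters because it shifts gas and blood between the dorsal and the ventral lung. The title of the series mentions MAP kinase phosphatase-1. Its gene is Dusp1, and the enzyme switches stress kinases off again. The comparison asks what prone ventilation did to transcripts of this dorsal region.

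Signals are given in log2 units as GCRMA summaries, so a difference of 1 is a doubling, and errors after ± are standard errors of the limma model unless SD is stated. Of 20242 probe sets, 16896 were tested, and 1 probe set stood for each of 10240 named genes. The tissue carried the defining transcripts of lung. On the 5 arrays the surfactant gene Sftpc read 15.02 to 15.51, the type 1 cell receptor gene Ager 13.54 to 14.54 and the club cell secretoglobin Scgb1a1 15.35 to 15.72. RNA quality was similar in both compared groups, with the 3′ end of beta-actin above its 5′ end by 4.06 and 3.31 on the non-ventilated arrays and by 3.52, 3.21 and 3.32 on the prone arrays. Supine array 3, which enters the spread, stood at 9.10 by the same measure. Prone array 1 stood apart from the other prone arrays. Over tested probe sets it correlated at 0.86 with each of them and at 0.96 with supine array 1, which carries the same replicate number. The controls lay 2 log2 units or more apart for 29 genes (0.283%) and prone arrays 2 and 3 for 241 (2.35%), whereas prone array 1 lay that far from prone arrays 2 and 3 for 988 and 916 genes (9.65% and 8.95%). A prone and a non-ventilated array lay that far apart for 5.69% to 9.33% of genes. Values are therefore given array by array, always in the order non-ventilated 1 and 2, then prone 1, 2 and 3.

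After adjustment over all 16896 probe sets, 9 differed between prone and non-ventilated lungs, which is 0.0533% of those tested. 1 rose (0.00592%) and 8 fell (0.0473%), or 3 and 8 when each array was centred on its median, which moved the median difference of all genes from -0.15 to -0.04. The fallen ones with a gene symbol were Bnc1, Scel, Tspyl4 and Grtp1, each on its brightest probe set and so the only 4 genes called (0.0391%), and Arhgap1, Lrrn4 and Pnkd, each on a dimmer one. Bnc1, a zinc finger factor used here as a mesothelial marker, read 6.88 and 6.6 without ventilation and 3.11, 3.05 and 2.91 after it. Every prone array thus lay far below both controls, a difference of -3.72 ± 0.28 (adjusted p = 0.0172). Scel, which encodes sciellin, a precursor of the cornified envelope that is also found in the alveolar epithelium, read 6.99 and 8.03 and then 2.95, 2.96 and 2.89. Its groups were apart as well, by -4.58 ± 0.35 (adjusted p = 0.0172). Grtp1, a gene of a TBC domain protein, kept signal in the prone lungs, with 9.01 and 8.59 against 5.02, 5.28 and 5.92 and a difference of -3.4 ± 0.35 (adjusted p = 0.0336). Lrrn4, another mesothelial marker, stood at -2.72 ± 0.28 on the probe set that passed (adjusted p = 0.0336) and at -2.89 ± 0.62 and -2.73 ± 0.58 on its other probe sets. The 3 probe sets of Arhgap1 stood at -3.65 ± 0.30, -2.53 ± 0.65 and -1.71 ± 0.57, of which the first passed (adjusted p = 0.0172). Pnkd stood at -2.43 ± 0.25 on the set that passed (adjusted p = 0.0336) and at -1.35 ± 0.39 on the brighter set. The probe set that rose carries no symbol; it read 5.30 and 5.49 in the controls and 9.56, 9.10 and 8.90 in the prone lungs (adjusted p = 0.0307).

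These calls have limits. Of the 8 fallen probe sets 6 read between 1.94 and 3.23 on all prone arrays. These were the sets of Bnc1, Scel, Tspyl4, Arhgap1 and Lrrn4 and an unnamed one. On each array 6.08% to 8.49% of probe sets lay at or below 3.2, the bottom of the scale. The size of their fall is therefore uncertain. Signals there also varied little, with an SD between prone arrays from 0.036 (Scel) to 0.10 (Bnc1) among the named ones and 0.32 for the unnamed one. Their standard errors and p-values rest partly on that small spread. With an intensity trend in the variance model the count of calls was 0. The count of calls was 115 without prone array 1 and 0 without prone array 2, prone array 3 or either control, where 2131, 2229, 1186 and 1247 probe sets had an unadjusted p under 0.05 in limma. It was 5, 65 and 90 without supine array 1, 2 or 3, which were kept in the filter throughout. With the replicate number as a block it was 0, with a smallest adjusted p of 0.0516 and 3127 probe sets at an unadjusted p under 0.05. In whole tissue, fewer cells of a type and less RNA per cell cannot be told apart.

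Short of that threshold the groups often did not overlap. With so few arrays this also happens for genes that do not differ, so for a single gene it is weak evidence. For 4873 of the 10240 genes (47.6%) the 3 prone arrays all lay above or all below both controls, 1905 above (18.6%) and 2968 below (29.0%), and 17.7% of probe sets and 1749 genes (17.1%) had an unadjusted p under 0.05, 651 higher (6.36%) and 1098 lower (10.7%). Of all genes 41.2% were higher and 58.8% lower, and the median difference was -0.15. Counts for each group of genes below are read against these shares, and no gene named below passed the adjusted threshold unless that is stated. Lists and their members were chosen with earlier results of these data known. A count above its share therefore describes the list and is no independent test.

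**Figure D1:**
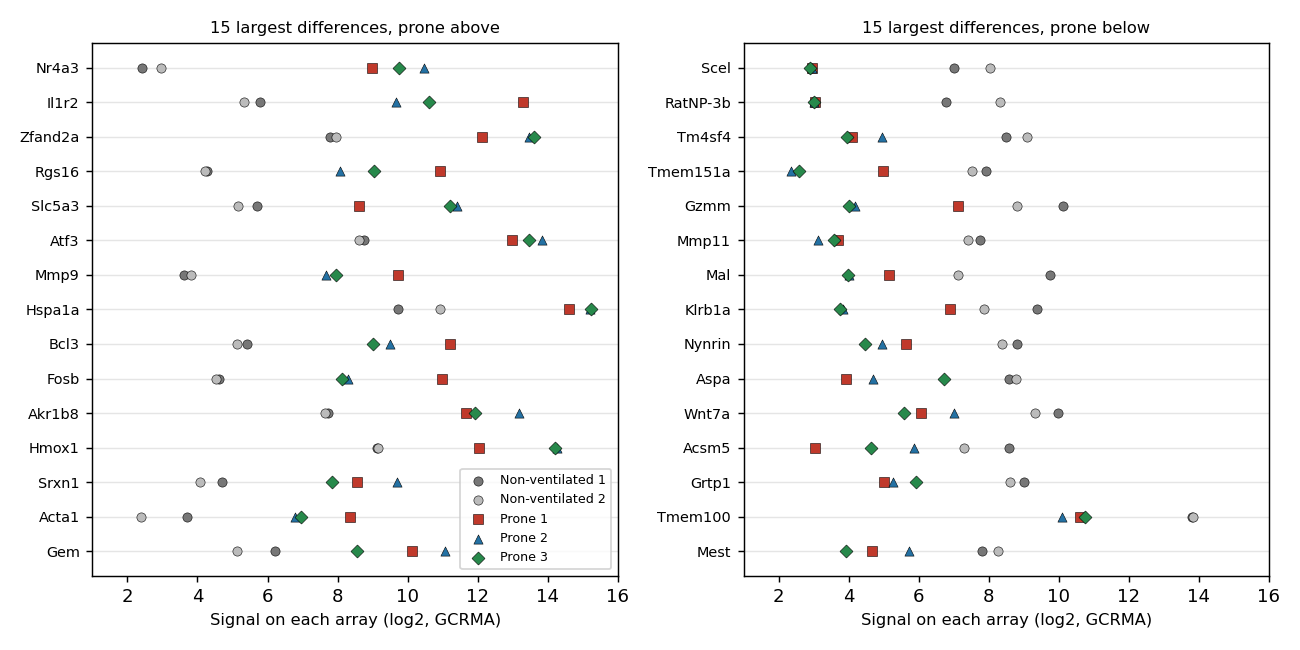
Signal of the 15 genes with the largest difference in each direction among genes whose groups did not overlap, with an unadjusted p under 0.01 and a mean of at least 7 in the higher group, 1 row per gene and 1 point per array, on the log2 scale of the deposited values. Left, prone arrays lie above both non-ventilated arrays, with Nr4a3 at the top; right, they lie below, with Scel and RatNP-3b near 3 on all prone arrays.

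Genes with the largest differences were ranked among those with groups apart, an unadjusted p under 0.01 and a mean of at least 7 in the higher group. Il6 and Ccl7, with differences of 7.89 ± 2.91 and 5.74 ± 2.08, missed that p and are described below. Nr4a3, an orphan nuclear receptor induced early by many stimuli, read 2.42 and 2.96 in the controls and 8.97, 10.47 and 9.76 in the prone lungs, a difference of 7.04 ± 1.76 (adjusted p = 0.129). Zfand2a, which helps the proteasome take up damaged proteins, read 7.78 and 7.95 and then 12.13, 13.47 and 13.62, a difference of 5.2 ± 1.11 (adjusted p = 0.108). Slc5a3 imports the osmolyte myo-inositol and read 5.7 and 5.16 against 8.6, 11.4 and 11.21. Both were lowest on prone array 1 among the ventilated lungs. Rgs16, which shortens G protein signals, was instead highest there, with 4.28 and 4.21 against 10.93, 8.06 and 9.03. Gem, a small GTPase that restrains calcium channels, read 6.21 and 5.14 against 10.14, 11.08 and 8.55. Akr1b8, an aldose reductase family member, read 7.72 and 7.65 against 11.66, 13.18 and 11.92, highest on prone array 2, and stood 4.57 ± 0.65 above controls.

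Genes on the list of heat shock chaperones, which includes the factors Hsf1 and Hsf2, were all higher on average. Chaperones refold denatured clients, and their genes are switched on by heat shock factors when unfolded protein accumulates in the cytosol. All 22 tested genes were higher after prone ventilation, against 41.2% of all genes, 21 of them with every prone array above both controls (18.6% of all genes), and 19 had an unadjusted p under 0.05 (6.36%). Their median difference was 2.45. Their promoters were read for the motif of heat shock factors. Members were listed as heat shock genes, so a frequent match follows from that choice and is no test of the response to ventilation. The inverted repeat bound by heat shock factors, spelled GAANNTTC and identical on both strands, lay in the 250 bases before the start of 11 of the 19 members found in the RefSeq promoter table of GRCr8, against 7.02% of all 27457 promoters and 4.93% of the 8546 promoters of tested genes. Motifs were also read for lists described below. The C/EBP-ATF element lay in 4 of 25 promoters of the unfolded protein and ATF4 list (1.77% for tested genes). The cyclic AMP element lay in 1 of these 25 (2.97%). The antioxidant element lay in 5 of 19 promoters of the NRF2 list (12.4%). As examples, the first 6 members of the heat shock list with a GAANNTTC match are shown over 80 bases each, with the match in capitals. They lie at chr12:10427288-10427367 (Hsph1, + strand), chr19:41431142-41431221 (Dnajb1, - strand), chr1:192533292-192533371 (Bag3, + strand), chr12:26432377-26432456 (Hspb1, - strand, with 2 matches), chr5:60638187-60638266 (Dnaja1, + strand) and chr9:64084208-64084287 (Hspd1, - strand).
Hsph1: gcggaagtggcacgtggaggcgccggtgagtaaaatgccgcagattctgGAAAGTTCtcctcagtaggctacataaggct
Dnajb1: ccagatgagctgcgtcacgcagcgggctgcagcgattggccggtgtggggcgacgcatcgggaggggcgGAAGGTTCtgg
Bag3: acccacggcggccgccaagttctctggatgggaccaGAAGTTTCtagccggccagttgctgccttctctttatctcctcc
Hspb1: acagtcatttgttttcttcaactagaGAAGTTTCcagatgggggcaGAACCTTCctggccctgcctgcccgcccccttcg
Dnaja1: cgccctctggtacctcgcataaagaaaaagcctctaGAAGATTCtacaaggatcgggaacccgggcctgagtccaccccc
Hspd1: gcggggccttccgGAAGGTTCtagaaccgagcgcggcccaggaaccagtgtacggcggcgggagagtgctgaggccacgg

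Hspa1a, the inducible Hsp70, has no such match in its window. It read 9.72 and 10.93 in the controls and 14.61, 15.2 and 15.23 in the prone lungs, and its difference was 4.69 ± 0.83 (adjusted p = 0.0899). Hsph1, the exchange factor that releases nucleotide from Hsp70, read 10.6 and 10.89 and then 14.07, 14.93 and 15.02, 3.93 ± 0.61 higher. Dnajb1, the Hsp40 partner that hands clients to Hsp70, read 10.18 and 10.98 and then 13.13, 14.6 and 14.63, 3.54 ± 0.56 higher. The groups were wide apart for each member of this Hsp70 cycle. Bag3 couples Hsp70 to the small heat shock proteins and to autophagy, and read 9.64 and 10.13 against 12.71, 14.5 and 14.63, 4.06 ± 0.91 higher. Of its partners, Hspb8 stood 3.5 ± 0.63 and Hspb1 1.62 ± 0.40 above controls. Co-chaperones of Hsp90 were higher too. Ahsa1, which speeds the ATPase of Hsp90, read 10.37 and 10.55 against 12.85, 13.27 and 13.37, a difference of 2.7 ± 0.35 (adjusted p = 0.0629). Fkbp4, an immunophilin of steroid receptor complexes, read 9.28 and 9.66 against 11.75, 13.07 and 12.95, 3.12 ± 0.43 higher (adjusted p = 0.0686). In the mitochondrial matrix the chaperonin Hspd1 stood 2.16 ± 0.54 above controls, and in the endoplasmic reticulum the collagen chaperone Serpinh1 1.51 ± 0.32.

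The chaperones were not equally high in all prone lungs. Prone array 1 was the lowest of the 3 prone arrays for 21 of the 22 genes, all but Hsf1, against 35.2% of all genes, and the list median was 1.71 there and 2.61 and 2.83 on prone arrays 2 and 3. Hspa4l, an Hsp110 relative, is an example, with 5.85 and 6.38 in the controls and 6.91, 10.83 and 10.05 in the prone lungs. The genes of the factors themselves were close to control levels. Hsf1, the master regulator, read 9.03 and 8.68 against 9.89, 8.19 and 8.82, overlapping the controls, and Hsf2 stood 0.31 ± 0.29 above them.

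**Figure D2:**
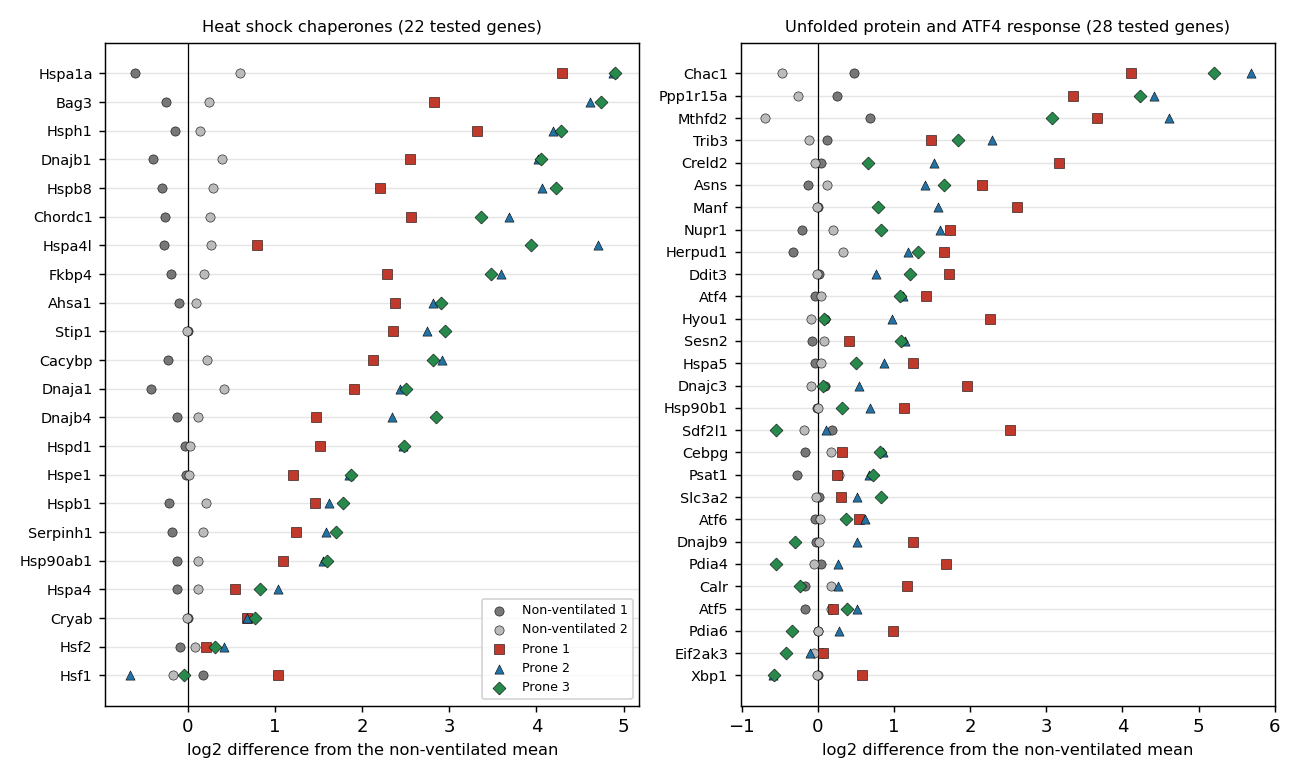
log2 difference of each array from the mean of the 2 non-ventilated arrays, 1 row per gene. Left, the 22 tested genes of the heat shock chaperone list, with Hsf1 and Hsf2 among them. Right, the 28 tested genes of the unfolded protein and ATF4 response. Chaperones sit higher on prone arrays 2 and 3 than on prone array 1; endoplasmic reticulum chaperones such as Sdf2l1, Hyou1 and Pdia4 sit highest on prone array 1.

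A second stress programme concerns protein folding in the endoplasmic reticulum and amino acid shortage. Both converge on phosphorylation of eIF2alpha and on the factor ATF4. Of 28 tested genes 26 were higher, 18 with groups apart, and 12 had an unadjusted p under 0.05, with a median of 0.87. Genes of the ATF4 arm were among them. Ppp1r15a, the GADD34 subunit that dephosphorylates eIF2alpha, read 7.92 and 7.41 in the controls and 11.01, 12.07 and 11.9 in the prone lungs, 4.0 ± 0.62 higher (adjusted p = 0.0781). Atf4 itself read 12.82 and 12.9 against 14.28, 13.98 and 13.93, 1.21 ± 0.27 higher. Mthfd2, a mitochondrial folate enzyme under ATF4 control, stood 3.78 ± 0.85 and Chac1, which degrades glutathione, 5.0 ± 1.68 above controls, with all prone arrays above both controls for each. The list was uneven across the prone lungs. Among genes of the folding machinery, Hspa5, the BiP chaperone, read 13.43 and 13.51 against 14.71, 14.34 and 13.97, and Sdf2l1, its co-factor, 10.87 and 10.5 against 13.21, 10.79 and 10.13. Hyou1 and Pdia4, a chaperone and a disulfide isomerase, gave the same picture, highest on prone array 1 (11.75 and 13.4) and lowest on prone array 3 (9.58 and 11.17, against 9.58 and 9.4 and 11.77 and 11.68 in the controls). Prone array 1 was the highest prone array for 18 of the 28 genes, against 48.8% of all genes.

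Immediate early transcription factors, the first genes read after a stimulus, were mostly higher. Of 25 tested, 21 were higher and all 21 had groups apart, 11 had an unadjusted p under 0.05, and the median was 1.37. They were high on all prone arrays, with medians of 1.7, 1.28 and 1.12. Atf3, a stress-induced repressor, read 8.75 and 8.61 in the controls and 12.99, 13.83 and 13.46 in the prone lungs, 4.75 ± 0.86 higher (adjusted p = 0.0929). Egr1, a growth and stretch response factor, read 11.73 and 10.32 against 14.12, 13.9 and 14.35, 3.09 ± 0.78 higher. Fos read 12.49 and 12.36 against 13.83, 13.51 and 13.55, and its relative Fosb 4.6 and 4.52 against 10.99, 8.31 and 8.13. Csrnp1, a nuclear factor induced by AXIN1, stood 3.62 ± 0.79 and Klf6, a zinc finger factor of tissue injury, 1.26 ± 0.27 above controls.

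3 Kruppel-like factors went the other way. Klf2, which flow induces in endothelium and which keeps it quiescent, read 13.95 and 13.42 in the controls and 13.31, 11.38 and 11.7 in the prone lungs, -1.56 ± 0.60. Klf4, which shares that role, read 12.6 and 12.34 against 11.2, 11.45 and 11.71, and Klf10, a target of TGF-beta, stood at -1.39 ± 0.50. For each of them all prone arrays lay below both controls.

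Dusp1, the gene in the series title, was well above the low end of the scale in both groups. It read 14.12 and 13.44 without ventilation and 13.98, 14.14 and 14.32 after it, so the groups overlapped, and the difference was 0.37 ± 0.35 (adjusted p = 0.615); its dimmer probe set stood at 0.63 ± 1.32. The difference was 0.71 without non-ventilated array 1 and 0.029 without non-ventilated array 2. Non-ventilated array 2 was the lowest of the 5, and the controls differed from each other by more than the prone arrays did. Of the 11 tested MAP kinase phosphatase and Sprouty genes, 6 were higher and 5 lower, and in 10 of them the groups overlapped. The exception was Dusp14, which read 10.23 and 10.13 in the controls and 8.09, 8.18 and 7.24 in the prone lungs, -2.34 ± 0.50. Of 18 kinases of the cascades 0 had an unadjusted p under 0.05, and p38alpha (Mapk14) stood at 0.55 ± 0.32.

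The interleukin-6 axis runs from the cytokine through the receptor gp130 and STAT3 to the inhibitor SOCS3. Of 14 tested genes of this axis 13 were higher, 11 with groups apart, with a median of 1.4. Il6 read 3.65 and 2.32 in the controls and 13.35, 12.82 and 6.46 in the prone lungs, a difference of 7.89 ± 2.91. All prone arrays lay above both controls, with prone array 3 far below the other prone arrays. The shared receptor Il6st read 11.8 and 11.64 against 13.19, 13.01 and 12.95, 1.33 ± 0.30 higher, and Stat3 10.41 and 10.2 against 11.95, 11.78 and 11.58, 1.47 ± 0.42 higher. Socs3, the feedback inhibitor, read 3.53 and 3.61 against 8.17, 7.59 and 7.19, 4.07 ± 0.76 higher (adjusted p = 0.0956), and Osm, a leukocyte cytokine of the family, stood 3.26 ± 0.96 above controls. The values given for receptor, transducer and inhibitor varied less among prone arrays than the cytokine, in the same order of arrays. Their SDs were 0.12, 0.18 and 0.49, against 3.84 for Il6.

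Interleukin-1 and TNF family genes were higher for 12 of 16 tested, 9 with groups apart. Il1b read 9.49 and 8.16 in the controls and 13.14, 11.67 and 11.83 in the prone lungs, 3.39 ± 0.59 higher (adjusted p = 0.0899). Its receptors differed by kind. Il1r2, the decoy receptor carried by neutrophils, read 5.78 and 5.32 against 13.3, 9.65 and 10.6, 5.63 ± 1.05 higher (adjusted p = 0.0955), while the signalling receptor Il1r1 stood 1.06 ± 0.29 above controls. The receptor antagonist Il1rn read 2.49 and 2.37 against 8.25, 2.36 and 2.32, so that prone array 1 alone was high. Tnf read 3.28 and 3.49 against 9.74, 5.01 and 5.1, with groups apart. Tnfaip6, which encodes the hyaluronan-binding protein TSG-6, was high on all prone arrays (7.92, 8.82 and 7.68 against 3.7 and 4.43).

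NF-kappaB genes were higher for 15 of 17 tested, 11 with groups apart, and on every one of the 17 prone array 1 was the highest prone array, against 48.8% of all genes. Bcl3, a nuclear IkappaB, read 5.42 and 5.12 in the controls and 11.22, 9.51 and 9.02 in the prone lungs, 4.65 ± 0.99 higher. Tnfaip3, the deubiquitinase A20 that ends the signal, read 9.12 and 8.69 against 12.33, 10.33 and 10.81, and the kinase gene Ikbkb 7.92 and 7.86 against 9.35, 8.59 and 9.05. Nfkbia, the classical inhibitor and target gene, was above the controls on prone array 1 and below them on prone arrays 2 and 3 (11.89 and 11.98 against 13.25, 10.57 and 11.17). The list median of 1.07 was 0.64 without prone array 1.

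Chemokines recruit leukocytes, and here they differed widely among the prone lungs. Of 25 tested 20 were higher on average, but the groups were apart above the controls for 4 (18.6% of all genes), and the list medians were 3.79, 0.24 and -0.33 on prone arrays 1 to 3. Without prone array 1 the median of 1.57 became 0.10. The neutrophil attractant Cxcl1 read 9.36 and 9.26 in the controls and 13.58, 11.93 and 10.16 in the prone lungs, with groups apart and 2.58 ± 1.18 higher. Its relative Cxcl2 read 4.78 and 3.39 against 12.37, 6.96 and 4.76. The monocyte attractant Ccl2 read 8.46 and 7.37 against 13.98, 12.93 and 8.06 and Ccl7 6.34 and 3.77 against 12.85, 12.84 and 6.71. Both were high on prone arrays 1 and 2 and near the controls on prone array 3. Ccl5, which T and NK cells supply, was lower on every prone array (12.64 and 11.85 against 10.89, 6.47 and 8.34, -3.68 ± 1.26).

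Interferon response genes showed no common direction against the controls and a wide spread among prone lungs. Of 23 tested 13 were higher and 10 lower, and the groups were apart for 3. Prone array 1 was the highest prone array for 22 of them, with a list median of 1.58 against -1.06 and -0.57 on prone arrays 2 and 3. Isg15, a ubiquitin-like effector, read 11.44 and 10.53 in the controls and 13.21, 7.55 and 9.21 in the prone lungs, and the antiviral GTPase gene Mx1 11.04 and 9.22 against 11.82, 6.48 and 5.83. The interferon-gamma chemokines Cxcl9, Cxcl10 and Cxcl11 read 9.97, 11.23 and 9.27 on prone array 1 but 2.92, 3.03 and 2.49 on prone array 2 and 2.92, 3.08 and 2.37 on prone array 3. The controls read 5.99 and 4.1 for Cxcl10, so non-ventilated array 1 carried more of it than non-ventilated array 2.

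**Figure D3:**
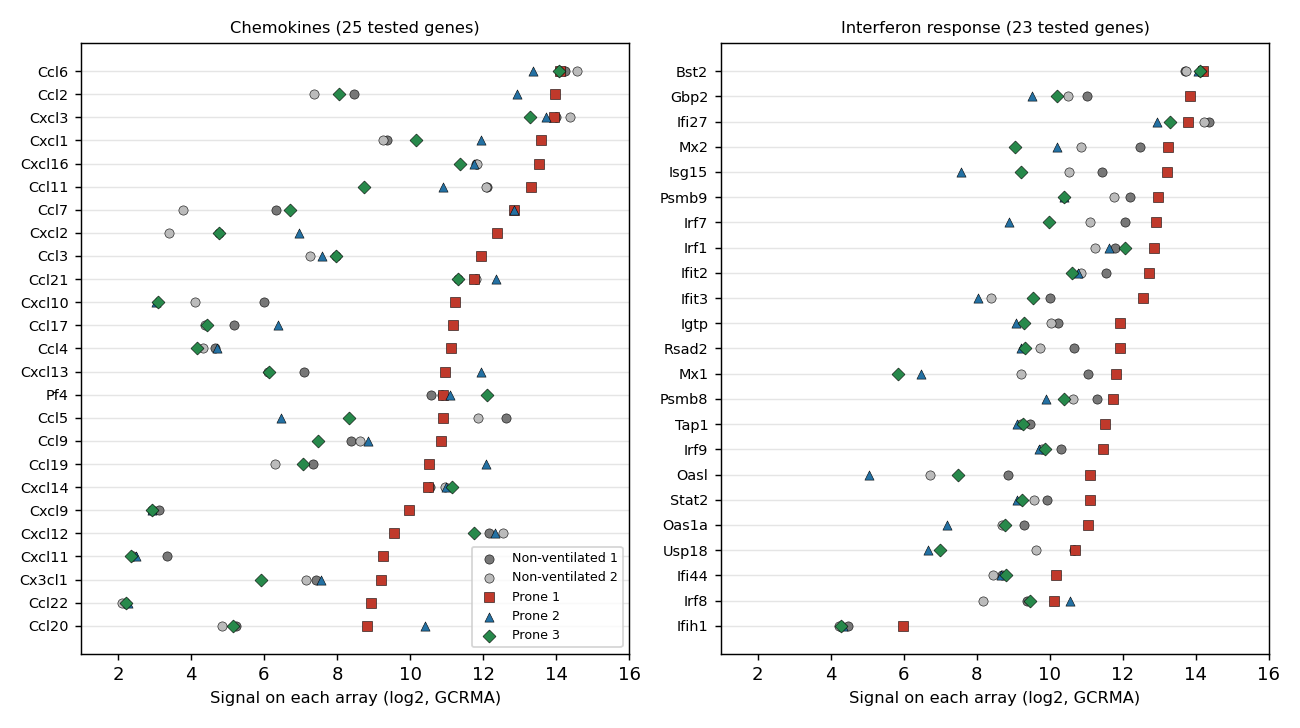
Signal of the 25 tested chemokines (left) and the 23 tested interferon response genes (right), 1 row per gene and 1 point per array, on the log2 scale of the deposited values and ordered by prone array 1. Prone array 1 lies to the right of the other prone arrays for 18 chemokines and 22 interferon response genes.

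Adhesion genes that let leukocytes leave the blood went both ways. Sele, the endothelial selectin induced by cytokines, read 4.66 and 2.84 in the controls and 7.25, 7.23 and 5.74 in the prone lungs, 2.99 ± 1.23 higher. Selp, the selectin stored in endothelial granules, read 6.17 and 5.08 against 11.55, 8.83 and 6.86, in the order of the chemokines. Icam2, a constitutive ligand of leukocyte integrins on endothelium, was lower on every prone array (13.09 and 13.06 against 11.19, 10.4 and 10.97, -2.22 ± 0.47).

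Markers of neutrophils were mostly higher and those of T and NK cells mostly lower in the prone lungs. Of 11 tested neutrophil markers 10 were higher, 7 with groups apart, and their summed signal was 16896 and 14617 in the controls and 157706, 41765 and 49106 on prone arrays 1 to 3, in linear signal units. S100a8, a subunit of the granulocyte protein calprotectin, read 11.63 and 11.5 against 15.31, 13.23 and 13.78, 2.55 ± 0.79 higher, and its partner S100a9 stood 2.01 ± 0.50 higher. Csf3r, the receptor for the granulocyte growth factor, read 7.38 and 6.01 against 12.79, 8.84 and 9.96, and the gelatinase gene Mmp9 3.62 and 3.81 against 9.73, 7.68 and 7.94 (4.73 ± 0.86). All of these were highest on prone array 1. The markers Lcn2 and Camp lay above both controls on prone array 1 alone. Lcn2 read 11.38 and 11.9 against 14.78, 11.39 and 10.78, and Camp 6.62 and 7.54 against 10.76, 6.72 and 7.52. Neutrophil defensins were lower. Np4 read 5.27 and 6.91 against 2.8, 2.61 and 3.33, -3.18 ± 1.1. RatNP-3b, which is not among the 11 markers counted, read 6.79 and 8.31 against 3.03, 3.02 and 3.02, -4.53 ± 1.16.

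T and NK cell markers were lower for 18 of 19 tested, 14 with groups apart below the controls (29.0% of all genes), and 13 had an unadjusted p under 0.05 (10.7%), with a median of -2.13. The T cell receptor chains Cd3e and Cd3g read 9.5 and 8.11 and 11.18 and 10.01 in the controls and 6.42, 7.8 and 5.8 and 7.82, 8.98 and 6.42 in the prone lungs. Non-ventilated array 1 was the higher control for both chains, and the list median lay at 0.61 on it and at -0.61 on non-ventilated array 2. The summed signal of the 19 markers was 18046 and 8500 in the controls and 6113, 4072 and 2257 in the prone lungs. Cytotoxic genes had another order. Gzmm, a granzyme of NK cells, read 10.13 and 8.79 against 7.11, 4.18 and 4.02, -4.36 ± 1.18, and Klrd1, the CD94 receptor, 9.58 and 8.6 against 7.69, 5.15 and 5.07. Klrb1a, a lectin-like NK receptor, stood at -3.79 ± 1.01. These 3 were nearest the controls on prone array 1 and further below them on prone arrays 2 and 3. Of 12 B and plasma cell markers 5 were higher and 7 lower, close to the shares of all genes, and the list median was -1.35, 0.47 and -1.35 on prone arrays 1 to 3. Among them, Cd79b of the antigen receptor read 7.9 and 6.52 against 2.22, 5.91 and 2.73 and the adaptor Bank1 8.88 and 8.78 against 4.74, 7.47 and 6.25, while the kinase Blk was higher on every prone array (2.12 ± 0.85). Macrophage and monocyte markers had no common direction, with 6 of 16 higher and a median of -0.38.

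Markers of both alveolar epithelial cell types, the flat type 1 cells and the secretory type 2 cells, were mostly lower. Of 14 type 1 markers 12 were lower, all 12 with groups apart, and 8 had an unadjusted p under 0.05, with a median of -0.92 and of -1.07, -0.88 and -0.71 on the prone arrays. The difference between the 2 lists was not tested. Ager, the receptor for advanced glycation products that marks type 1 cells, read 14.54 and 14.44 in the controls and 14.01, 13.54 and 14.07 in the prone lungs, -0.62 ± 0.31. Aqp5, their water channel, read 13.03 and 12.76 against 11.71, 11.2 and 11.73, -1.34 ± 0.52, and Clic5 and Emp2 stood at -1.17 ± 0.42 and -1.02 ± 0.37. Pdpn, which encodes podoplanin, was higher on every prone array (12.5 and 12.39 against 13.47, 12.81 and 12.78). Of 14 type 2 markers 13 were lower, 9 with groups apart, with a median of -0.41. Of the surfactant genes, Sftpc stood at -0.27 ± 0.26 and Sftpa1 at -0.24 ± 0.31. Etv5, a factor that maintains type 2 cells, read 9.77 and 9.92 against 7.9, 6.12 and 7.51, -2.67 ± 0.98, and the mucin gene Muc1 stood at -1.28 ± 0.46.

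Genes of the epithelial barrier were mostly lower as well. Of 23 junction genes 18 were lower, 10 with groups apart and 5 at an unadjusted p under 0.05, against 0 in the other direction. Cdh3, P-cadherin of adherens junctions, read 8.43 and 8.52 in the controls and 6.63, 6.4 and 6.31 in the prone lungs, -2.02 ± 0.26 (adjusted p = 0.0629). Dsg2, a desmosomal cadherin, read 9.49 and 9.46 against 8.18, 7.98 and 8.14, -1.37 ± 0.30. The tight junction scaffold Cgn stood at -1.96 ± 0.48 and the claudin Cldn3 at -1.17 ± 0.30. Cldn18, the claudin most typical of alveoli, stood at -0.35 ± 0.27, and at -0.57 ± 0.31 and -1.18 ± 0.34 on its other probe sets, with groups apart on each. Of 16 channel and pump genes of alveolar fluid clearance 13 were lower, 9 with groups apart, and the gamma subunit of the sodium channel, Scnn1g, read 10.18 and 10.13 against 9.01, 8.75 and 9.4.

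Endothelial markers were lower on average for all 18 tested, with a median of -0.81, but the groups were apart for 10 of them. The medians were -0.70, -0.92 and -0.19 on prone arrays 1 to 3, and Kdr, the VEGF receptor, read 13.55 and 13.57 in the controls and 12.94, 13.01 and 13.64 in the prone lungs. Nos3, the endothelial nitric oxide synthase, read 6.72 and 7.08 against 5.76, 6.01 and 5.88, -1.01 ± 0.28. The adrenomedullin receptor, which tightens the endothelial barrier, was lower in its core and in a partner. The core Calcrl read 5.25 and 6.51 against 3.05, 3.48 and 4.04, -2.36 ± 0.47, its partner Ramp2 13.52 and 13.57 against 11.98, 12.23 and 12.52, -1.3 ± 0.36, and Ramp1, which turns the same core into a receptor for calcitonin gene-related peptide, stood at -1.96 ± 0.41. The ligand Adm read 8.39 and 6.97 against 10.32, 7.87 and 8.28, overlapping the controls. The peptide apelin was lower as well, with Apln at 11.72 and 11.79 against 7.98, 9.21 and 8.77, -3.1 ± 0.84, and so were Ace, which makes angiotensin II (-1.4 ± 0.53), and the lymphatic growth factor Vegfc (-1.44 ± 0.33). Tmem100, a gene of endothelium downstream of BMP9, was also lower, with 13.81 and 13.84 against 10.59, 10.09 and 10.75, -3.34 ± 0.42 (adjusted p = 0.0629).

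On the vessel surface, genes that favour and that restrain clotting both differed. F3, tissue factor, read 10.3 and 10.84 in the controls and 12.56, 11.88 and 10.9 in the prone lungs, 1.21 ± 0.51 higher, and Thbd, the thrombomodulin that restrains thrombin, 13.58 and 13.63 against 12.28, 12.17 and 12.42, -1.31 ± 0.37. The plasminogen activators went apart, with Plat 1.14 ± 0.36 and Plau -1.39 ± 0.43. All 4 had groups apart. So had 2 genes of tissue factor pathway inhibitors that went opposite ways. Tfpi2 read 4.36 and 4.28 against 12.18, 9.29 and 5.93, 4.81 ± 2.25 higher, and Tfpi stood at -0.74 ± 0.37. The receptor gene Procr overlapped the controls, at 1.59 ± 1.15. Of the 17 genes of the list 8 were higher and 9 lower, with a median of -0.087.

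Mesothelium covers the lung surface, and its markers were lower for 11 of 14 tested, 7 with groups apart. Besides Bnc1 and Lrrn4, the neuronal-type membrane gene Gpm6a read 12.26 and 12.29 in the controls and 10.07, 10.4 and 9.31 in the prone lungs, -2.35 ± 0.39. The uroplakin Upk1b read 10.4 and 9.88 against 8.81, 6.48 and 5.86. Msln, which defines mesothelium, overlapped the controls (10.25 and 10.28 against 9.03, 10.36 and 8.12), and so did Wt1 (6.61 and 6.75 against 6.92, 4.79 and 3.64). The summed signal of the 14 markers was 46724 and 48904 in the controls and 51415, 47406 and 32418 in the prone lungs, where Slpi, a protease inhibitor that is also in the neutrophil list, stood 2.31 ± 1.21 above controls. The sum of all 14 thus overlapped the controls. Leaving out Slpi was chosen after seeing the data. Without it the sums were 44319 and 48017 in the controls and 30693, 39206 and 30181 in the prone lungs. Every prone array was then below both controls. Such a sum weighs bright members most, here Krt19, Gpc3 and Ezr with control means of 13.43, 13.10 and 13.01. The part of the amount of mesothelium in the falls of Bnc1 and Lrrn4 was not tested.

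Of 17 fibroblast markers 7 were higher and 10 lower, and of 17 smooth muscle and pericyte markers 13 were higher. Pdgfra, the receptor that marks alveolar fibroblasts, read 11.85 and 12.41 in the controls and 13.59, 13.24 and 13.48 in the prone lungs, 1.31 ± 0.34 higher. Tcf21, a factor of lipofibroblasts, read 10.75 and 11.55 against 10.08, 9.48 and 8.8, -1.7 ± 0.46. Wnt2, a fibroblast signal to type 2 cells, read 5.69 and 5.46 against 2.66, 2.69 and 3.33, -2.68 ± 0.31 (adjusted p = 0.0536), and Wnt7a, an epithelial Wnt, 9.96 and 9.33 against 6.07, 7.0 and 5.58. Of 14 genes of retinoic acid metabolism and receptors 4 were higher and 10 lower, 3 and 6 of them with groups apart. The retinoic acid receptor Rarb stood at -1.19 ± 0.33 and Cyp26b1, which degrades retinoic acid, at -2.31 ± 0.78, lowest on prone array 1 (12.66 and 12.27 against 8.79, 11.24 and 10.44). The dimmer probe set of Cyp26b1 stood at -4.97 ± 0.59 (adjusted p = 0.0575). Mest, an imprinted gene of mesenchyme, read 7.8 and 8.26 against 4.65, 5.73 and 3.94, and the stromelysin Mmp11 7.74 and 7.41 against 3.69, 3.14 and 3.59, -4.1 ± 0.61.

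Of 19 genes of sterol and fatty acid synthesis 13 were lower (58.8% of all genes), 8 with groups apart. Scd, the desaturase that makes oleate, read 10.35 and 11.25 in the controls and 8.52, 7.26 and 7.98 in the prone lungs, -2.88 ± 0.46 (adjusted p = 0.0781). Srebf1, its transcription factor, read 8.21 and 8.21 against 7.21, 6.57 and 6.61, -1.41 ± 0.39, and Insig2, which retains that factor in the endoplasmic reticulum, stood at -1.44 ± 0.40. In the sterol branch 2 genes stood the other way, with Cyp51 at 0.90 ± 0.39 and Fdft1 at 1.04 ± 0.53 and all prone arrays above both controls for each, while the dimmer set of Fdft1 stood at -0.68 ± 0.55. Of single genes outside these groups, the tetraspanin relative Tm4sf4 read 8.49 and 9.08 against 4.08, 4.94 and 3.96, -4.46 ± 0.59 (adjusted p = 0.0686), and Cyp1a1, the cytochrome induced by the aryl hydrocarbon receptor, 10.11 and 9.55 against 4.13, 7.29 and 5.32.

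Oxidant defence genes went both ways, and glucocorticoid response genes were more often higher than lower. Of 21 NRF2 target and defence genes 13 were higher and 8 lower, with a median of 0.21. Hmox1, haem oxygenase, read 9.14 and 9.15 in the controls and 12.04, 14.26 and 14.22 in the prone lungs, 4.36 ± 0.98 higher, lowest on prone array 1 as the chaperones were. Srxn1, which repairs oxidised peroxiredoxins, read 4.69 and 4.06 against 8.57, 9.71 and 7.85, 4.33 ± 0.78 higher, whereas the classical target Nqo1 overlapped the controls (10.87 and 10.81 against 10.96, 11.41 and 10.79). Of 18 glucocorticoid response genes 13 were higher, 9 with groups apart, with a median of 0.83. Fkbp5, the receptor co-chaperone, read 8.92 and 9.21 against 11.18, 10.43 and 10.89, 1.77 ± 0.34 higher, and Tsc22d3 (GILZ) stood at 0.72 ± 0.44 and Sgk1 at -0.68 ± 0.41. The metallothionein Mt1 read 3.89 and 4.33 against 7.9, 8.03 and 6.28, 3.3 ± 0.61 higher (adjusted p = 0.0955). Of 16 growth arrest and DNA damage genes 10 were higher and 6 lower, 7 and 4 of them with groups apart. Gadd45b stood 1.49 ± 0.41 and Cdkn1a, the p21 inhibitor, 1.49 ± 0.60 above controls. Bbc3 and Ccng2 stood at -1.34 ± 0.55 and -1.29 ± 0.52, with every prone array below both controls. Hbegf, a heparin-binding ligand of the EGF receptor, read 5.47 and 5.49 against 8.15, 9.22 and 9.1, 3.34 ± 0.60 higher, and P4ha1, a collagen prolyl hydroxylase, 10.83 and 11.29 against 12.92, 13.78 and 14.08.

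Genes of ribosome assembly were higher for 25 of 27 tested, 14 with groups apart, with a median of 0.78. All 27 were highest on prone array 1 among the prone lungs and 25 were lowest on prone array 3, and the medians were 1.48, 0.67 and 0.22. Utp20, of the small subunit processome, read 6.08 and 5.81 in the controls and 8.37, 7.95 and 7.45 in the prone lungs, 1.98 ± 0.46 higher. Wdr43 stood 2.41 ± 0.63 above controls. The nucleolin gene Ncl stood 0.81 ± 0.70. Myc, which drives such genes, read 9.56 and 9.27 against 12.47, 11.48 and 10.79, in the same order. Cell cycle genes had no common direction, with 9 of 18 higher. The mitotic cyclin Ccnb2 read 5.59 and 5.65 against 6.88, 7.3 and 7.17, 1.5 ± 0.28 higher, and the replication helicase Mcm2 8.77 and 8.63 against 7.71, 7.53 and 7.41, -1.15 ± 0.27.

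**Figure D4:**
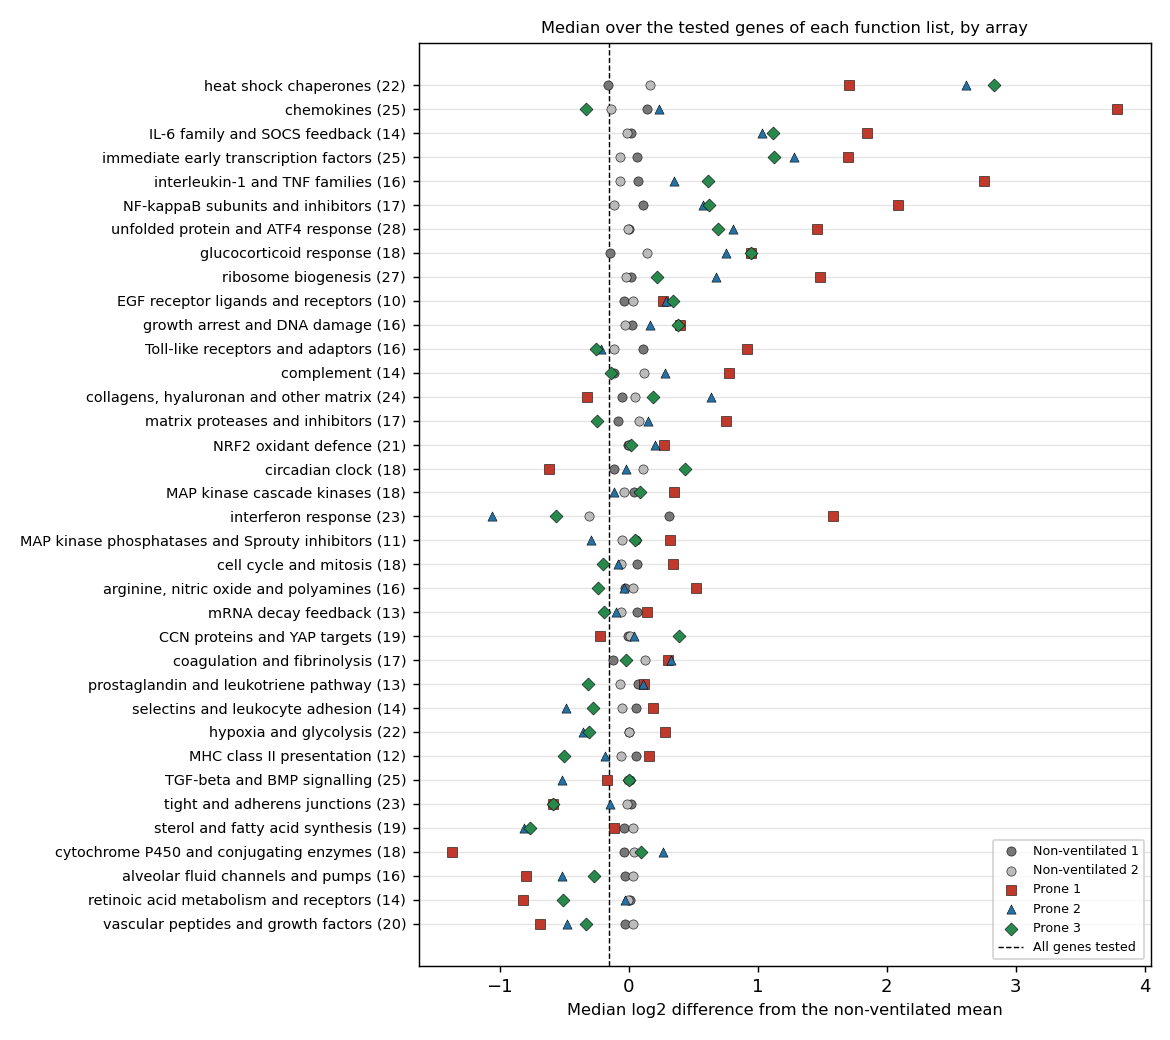
Median over the tested genes of each of the 36 function lists, 1 row per list with its number of tested genes in brackets and 1 point per array, as log2 difference from the non-ventilated mean. The dashed line is the median difference of all 10240 genes (-0.15). The heat shock list lies far from the line on all prone arrays, while chemokines, NF-kappaB and interferon genes do so on prone array 1.

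Cardiac and airway markers were highest on prone array 2 among the prone lungs. The atrial and ventricular myosin genes Myl7 and Myh6 read 9.59 and 9.87 on prone array 2 against 2.09 and 2.76 on prone array 1 and 2.04 and 2.73 on prone array 3, and all 9 cardiac markers were highest there among the prone lungs. The median of these 9 was 2.23, and 0.23 without prone array 2. Bpifa1 and Muc5b, secretory products of large airways, read 13.71 and 11.44 on the same array, against 3.18 and 5.09 on prone array 1, and all 12 airway markers were highest there too. The summed signal was 1051, 4497 and 776 for cardiac and 50656, 129930 and 74437 for airway markers in the prone lungs, against 1068 and 746 and 78930 and 79634 in the controls. Their part in the other differences of prone array 2 was not tested. Foxj1, the factor of ciliated cells, was instead high on all prone arrays (8.44 and 8.36 against 9.31, 11.24 and 10.97). Acta1, the skeletal muscle actin, was likewise high on all of them (3.71 and 2.39 against 8.36, 6.78 and 6.97, 4.32 ± 0.59). The erythroid haem enzyme Alas2 read 7.1 and 7.08 against 9.6, 10.86 and 11.03, 3.41 ± 0.60 higher (adjusted p = 0.0899), while the beta globin Hbb stood at 0.46 ± 0.40.

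**Figure D5:**
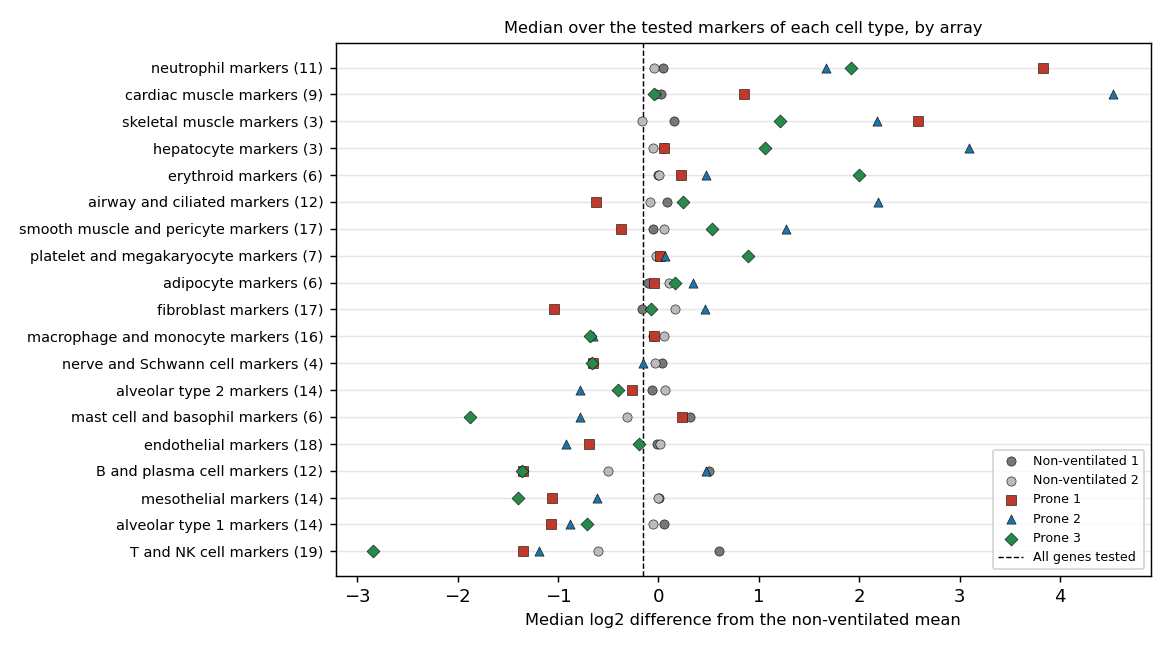
Median over the tested markers of each of 19 cell types, 1 row per cell type with its number of tested markers in brackets and 1 point per array, as log2 difference from the non-ventilated mean; the dashed line is the median difference of all genes. T and NK cell markers lie below the controls on all prone arrays, type 1 markers lie close together, and cardiac markers stand out on prone array 2.

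Genes of the circadian clock gave no common direction, with 10 of 18 higher. Dbp, an output gene of the clock, read 10.01 and 10.7 in the controls and 7.44, 7.7 and 9.79 in the prone lungs, and Bmal1, of its positive limb, 4.92 and 4.6 against 6.39, 5.96 and 4.77. Nfil3, which opposes Dbp and also answers cytokines, was higher on every prone array (6.91 and 5.98 against 10.8, 10.59 and 10.26, 4.11 ± 1.04), as was the clock kinase gene Csnk1e (1.29 ± 0.30).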

How the data were processed

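Total RNA of each lung was labelled and read on 1-colour rat expression arrays, 1 per animal. The authors deposited log2 values summarised by GCRMA, and the submitters' processing notes name Partek 6.5. No source used here gives further filters. GCRMA compresses signals near background, so differences there are poorly measured, and array number limits precision.

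The deposited log2 values were used unchanged. Control probe sets were left out, and 16896 of 20214 others reached log2 5 on at least 2 of 8 arrays. limma 3.58.1 in R 4.3.3 fitted all 8 arrays as 3 groups and tested prone minus non-ventilated, with Benjamini-Hochberg adjustment at 0.05. Each gene was represented by its brightest probe set on average. Of 38 genes named that have several tested probe sets, the sets lay in 1 direction for 37 (not for Fdft1), and in 27 another set differed over 1.5 times in size. Deviations of same-numbered arrays from their group means correlated at 0.21 and 0.11 between non-ventilated and prone and at 0.72, 0.29 and 0.20 between prone and supine arrays. Non-ventilated array 2 and prone array 3, which differ in number, correlated at 0.21 as well. Deviations of the 2 controls are mirror images, so these values do not set same-numbered arrays of these groups apart. No label says that a number pairs animals, so a pairing would rest on the data alone. A fit with the number as a block is given beside the count of calls. p-values measure only the spread between these samples. The method was tested on simulated data. Genes named were those called, the 15 largest differences in each direction (groups apart, unadjusted p under 0.01, mean of at least log2 7 in the higher group), up to 2 genes of smallest p in each direction and the first 3 genes of each of 55 lists, narrowed to lists described, and Dusp1; further list members were named after their values were seen. Members and lists were chosen with earlier results of these data known. Alternatives changed the filter, the scaling, the variance model, the arrays fitted and the probe set rule.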

Additional observations from a re-analysis of the deposited data

How the results depend on the processing

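The count of 9 probe sets became 0 with a filter at log2 7, 35 with no filter, 15 after a further quantile normalization (4 higher, 11 lower), 119 with the 5 compared arrays alone, 0 with an intensity trend and 5724 with array quality weights, and 0 to 115 with 1 array left out. The 0 calls at log2 7 and with the trend stand beside 2422 and 3041 probe sets at an unadjusted p under 0.05 in limma. With the replicate number as a block 0 probe sets passed, with 3127 at an unadjusted p under 0.05. The block ended all 9 calls and added none. It also gave medians of 1.02 for glucocorticoid, 0.42 for NRF2, 0.39 for EGF receptor and 0.36 for cell cycle genes. The filter at log2 7 gave 0.30 for EGF receptor and 0.29 for growth arrest genes. Centring gave 0.95 for glucocorticoid and 0.79 for EGF receptor genes, and quantile normalization 0.76 for the latter. Array weights gave 0.58 for EGF receptor, 0.23 for coagulation, 0.33 for growth arrest, -0.36 for vascular peptide and -0.19 for retinoic acid genes, and the mean over probe sets 0.24 for coagulation genes. With 1 array left out, medians ran over 0.29 to 0.81 (EGF receptor ligands and receptors), -0.25 to 0.36 (adipocyte markers), -0.14 to 0.20 (coagulation and fibrinolysis), -0.77 to 0.43 (cytochrome P450 and conjugating enzymes), 0.43 to 1.11 (glucocorticoid response), 0.30 to 0.61 (growth arrest and DNA damage), -0.16 to 0.12 (prostaglandin and leukotriene pathway), -0.87 to -0.11 (retinoic acid metabolism and receptors), -0.83 to -0.28 (sterol and fatty acid synthesis) and -0.97 to -0.24 (vascular peptides and growth factors). The sign turned with array weights for Cxcl10 (-1.29) and Hsf1 (-0.29). With 1 array left out it turned for Cxcl10 (-1.99 to 2.11), Cxcl11 (-0.45 to 3.0), Cxcl9 (-0.11 to 3.41), Hsf1 (-0.35 to 0.50), Il1rn (-0.093 to 2.87), Isg15 (-2.6 to 0.22), Myh6 (-0.036 to 3.53), Myl7 (-0.052 to 3.73), Nfkbia (-1.06 to 0.27), Pdia4 (-0.15 to 0.97) and Sdf2l1 (-0.22 to 1.32). The cause of these shifts was not tested. Of 1007 recomputed counts and list medians, 958 moved by less than 1.5 times or than the spread between prone arrays, 34 medians moved further, and the count of calls was larger in 7 and smaller in 8. Where prone arrays differ widely, a large shift stays within that rule, so the 958 do not measure stability. The spread was 2.23 for chemokines (median 1.57) and 2.43 for cardiac markers (median 2.23). Their falls without 1 prone array, described above, lie within it. Leaving out Slpi, an alternative chosen after seeing the data, gave medians of -1.10 for mesothelial and 2.34 for neutrophil markers.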
